A study of Gallus gallus with 6 samples.

Results

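The genes described here encode the scaffold and adhesion proteins that join neighbouring cells of the intestinal lining: occludin (OCLN), tricellulin (MARVELD2), MARVELD3, the zonula occludens proteins ZO-1 (TJP1) and ZO-3 (TJP3), cingulin (CGN), the junctional adhesion molecule F11R, E-cadherin (CDH1) and beta-catenin (CTNNB1). They were chosen by gene symbol: of 9 symbols named, 8 had a row among the 16317 genes of the deposited table, and F11R was not analysed here. RNA sequencing measured messenger RNA in mucosa of the jejunum, the middle segment of the small intestine, taken from SUT breeder hens aged 28 weeks. Control hens were kept in the thermoneutral zone at 23 °C and heat-stressed hens were held at 36 °C for 6 h. The study held 50 hens, 25 in each group, and took tissue from 12 of each group. RNA from 4 hens was combined into a pool, so that there were 3 control libraries and 3 heat libraries, 1 for each pool. Hens within a pool cannot be told apart, and the spread between replicates is a spread between pools. The design asks which genes of the gut respond to acute heat.

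Tight junctions seal the space between epithelial cells near the lumen. Occludin, tricellulin and MARVELD3 are membrane proteins that share the MARVEL domain. Occludin sits along the contact between a pair of cells and tricellulin is concentrated where 3 cells meet. ZO-1 and ZO-3 are scaffolds under the membrane that bind occludin and claudins, and cingulin links the ZO proteins to actin and myosin. Below the tight junction, E-cadherin holds the cells together in adherens junctions, and beta-catenin binds its tail. Beta-catenin is also the nuclear effector of Wnt signalling, which keeps crypt stem cells dividing. In mammals, heat is known to loosen the gut barrier, and junction genes are often measured as a readout of it.

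Summed estimated counts were 11513427 to 13805395 per library. The filter on low counts left 13060 genes for the test, all 8 junction genes among them. The lowest count of any of the 8 genes in a library was 333 (MARVELD3 in heat pool 1), which gives a counting error of 5.48%. Of 12 markers of epithelium 10 were tested, and none of those in the table was at 0 in every library. The epithelial adhesion gene EPCAM was at 1612 to 2820 CPM (library-size scaled counts) over the 6 libraries, highest in heat pool 3. VIL1, of the same list, was at 1200 to 1267 CPM in control pools and 813, 617 and 1106 CPM in heat pools 1, 2 and 3. The change with heat was positive in 4 of the 10 tested markers and negative in 6. In 2 of them (20%) every heat pool lay below every control pool, against 12.9% of all tested genes, and in 0 above. The heat pools differed among themselves. HSPA2, a heat shock protein of the HSP70 family, ranged from 79.6 to 155 CPM without heat and reached 323, 5895 and 307 CPM in heat pools 1, 2 and 3. In edgeR's quasi-likelihood test 3 of 13060 genes passed an adjusted p of 0.05 (0.023%), all higher in heat and none of them a junction gene.

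The levels of the junction genes per length spanned a wide range and kept nearly the same order with and without heat. CTNNB1 and CDH1 were the most abundant, at 160 ± 10.6 and 159 ± 13 FPKM (fragments scaled by gene length and library size; mean ± SD, n = 3 pools) in control pools. Their pools overlapped and their order differed between libraries, with CTNNB1 above CDH1 in 3 of 6. CGN followed at 60.6 ± 4.84 FPKM, below CDH1 in 6 of 6 libraries. MARVELD3 was at 31.3 ± 3.64, OCLN at 26.4 ± 1.21 and TJP3 at 21.7 ± 2.13 FPKM in control pools. TJP1 was at 10.4 ± 1.54 and MARVELD2 at 5.56 ± 0.621 FPKM, the lowest of the 8 in every library. In control pools each gene from CDH1 downwards was separated from the next without overlap. In heat pools the ranges of MARVELD3 and OCLN overlapped, with OCLN the higher of the pair in each library, and those of TJP3 and TJP1 overlapped too.

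**Figure D1:**
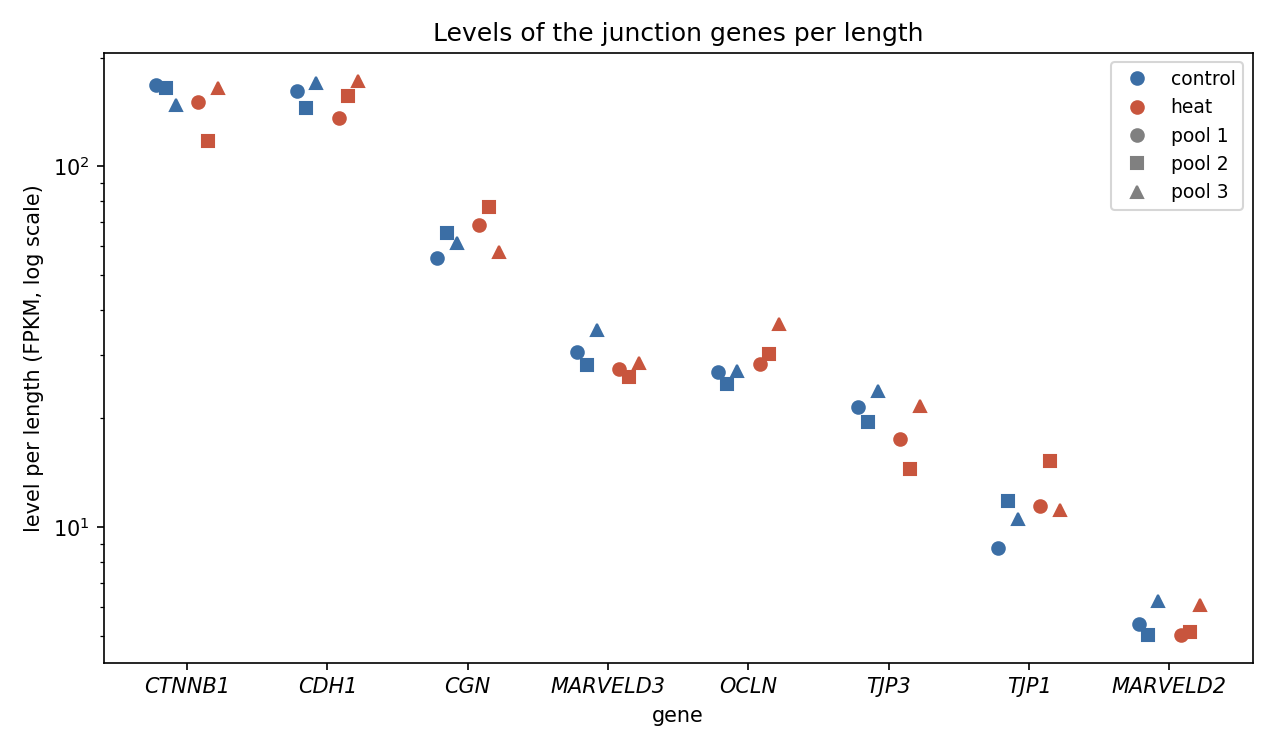
Level per length (FPKM, log axis) of the 8 junction genes, ordered by their control mean, with 1 point per pool in blue for control and red for heat, and pools 1, 2 and 3 as circles, squares and triangles. CTNNB1 and CDH1 lie between 117.58 and 172.53 FPKM, MARVELD2 lies between 5.03 and 6.25 FPKM, and OCLN lies below MARVELD3 in the control pools and above it in the heat pools.

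Among the membrane proteins of the tight junction, OCLN had heat pools that all lay above the control pools, although its difference did not pass the test over all genes. OCLN (gene 396026) was at 44.5, 40.4 and 44.4 CPM in control pools 1, 2 and 3, against 45.9, 51.0 and 65.4 CPM in heat pools 1, 2 and 3. The groups did not overlap, but heat pool 1 lay close to the control pools and heat pool 3 stood highest. The OCLN count in heat pool 1 was 541, with a counting error of 4.3%. The gap between 44.5 and 45.9 CPM was no larger than that error. The fitted log2 change was 0.33 (SE 0.15), or 1.26-fold with a 95% interval from 0.992 to 1.59, and the edgeR adjusted p was 0.293. Pools that do not overlap were common in this comparison: 11.6% of all tested genes had every heat pool above every control pool, and 12.9% had every heat pool below. Without heat pool 3 the log2 fold change of OCLN was 0.17. In a pool of mucosa, fewer cells of a type and less RNA per cell cannot be told apart, here and for every gene below.

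MARVELD2 (gene 427393) was at 38.2, 34.9 and 43.9 CPM in control pools, against 35.1, 37.2 and 46.6 CPM in heat pools, so that the groups overlapped, with heat pool 3 the highest of all 6 libraries. Its fitted log2 change was 0.023 (SE 0.15, edgeR adjusted p = 0.958). The 95% interval in fold was 0.8 to 1.29, which leaves room for changes of that size in either direction. The sign of this small value turned under several other settings, among them -0.11 without heat pool 3.

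MARVELD3 was at 32.1, 28.7 and 36.7 CPM in control pools, against 28.3, 27.9 and 32.4 CPM in heat pools. Heat pools 1 and 2 lay slightly below the lowest control pool, and heat pool 3 fell within the control range. The gap between 28.7 and 28.3 CPM was smaller than the counting error of 5.48% in heat pool 1. On the log2 scale the fold change was -0.14 (SE 0.14, 95% interval -0.45 to 0.17, edgeR adjusted p = 0.631). It was -0.039 without control pool 3 and -0.21 without control pool 2. The name MARVELD3 is that of the deposited table for gene 420903: the reference gene table of another assembly (GRCg7b) lists the same identifier as LOC420903, without that name.

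Ratios within a library do not depend on how libraries are scaled to each other. A trend with gene length that differs between libraries can still enter them, and no ratio was corrected for it. The implied length was 1663 bp for OCLN and 7145 bp for MARVELD2. With the gene length trend removed their log2 fold changes were 0.38 and -0.071. The FPKM ratio of OCLN to MARVELD2 was 5.0, 4.96 and 4.34 in control pools and 5.62, 5.9 and 6.0 in heat pools, without overlap. Its log2 difference was 0.30, with an exact two-sided permutation p of 0.1, the smallest that 3 against 3 pools allow (adjusted p = 0.4 over the 4 ratios tested). The ratio of OCLN to MARVELD3 was chosen after its values were seen and has no test. It was 0.881, 0.889 and 0.77 in control pools and 1.03, 1.16 and 1.28 in heat pools. Per length, OCLN was thus the lower of the pair in every control library and the higher in every heat library. In CPM, which takes no account of length, OCLN was the higher of the pair in every library. The implied length of MARVELD3 was 1056 bp. Both ratios hold OCLN, whose own groups did not overlap. How often ratios of other genes separate the groups was not examined.

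Among the plaque scaffolds, TJP1 and CGN leaned higher and TJP3 lower in heat pools, with overlap between the groups in all 3 and no call in the test. TJP1 (gene 415388), the scaffold ZO-1, was at 56.9, 75.5 and 68.1 CPM in control pools, against 73.1, 102 and 78.4 CPM in heat pools. Heat pool 2 stood highest and heat pool 1 lay below control pool 2. The change on the log2 scale was 0.34 (SE 0.16), or 1.26-fold with a 95% interval from 0.978 to 1.63, and the edgeR adjusted p was 0.315. Without heat pool 2 this value was 0.19, and with a correction for gene length it was 0.24. In GRCg7b the TJP1 gene overlaps MPHOSPH10 and 2 unnamed loci. The sources used here do not say whether counting used the strand. Whether reads of these genes entered the TJP1 counts, made on another build (GRCg6a), was not examined.

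TJP3 (gene 420070), the scaffold ZO-3, was at 81.3, 73.6 and 91.0 CPM in control pools, against 66.2, 56.6 and 91.1 CPM in heat pools. Heat pools 1 and 2 lay below all control pools and heat pool 3 was level with the highest of them. The log2 fold change was -0.20 (SE 0.18, 95% interval -0.62 to 0.21, edgeR adjusted p = 0.597). It was -0.42 without heat pool 3 and -0.053 without heat pool 2.

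CGN (gene 425665), which tethers the plaque to actomyosin, was at 205, 235 and 224 CPM in control pools, against 250, 291 and 230 CPM in heat pools. Heat pools 1 and 2 lay above all control pools and heat pool 3 lay within their range. The fitted log2 change was 0.22 (SE 0.13, 95% interval -0.086 to 0.52, edgeR adjusted p = 0.42), and 0.12 without heat pool 2.

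The FPKM ratio of TJP1 to TJP3 was 0.406, 0.602 and 0.442 in control pools and 0.652, 1.05 and 0.514 in heat pools. Heat pool 2 was the 1 library in which TJP1 exceeded TJP3. The log2 difference was 0.57 (exact permutation p = 0.2, adjusted p = 0.4), and it was 0.28 without heat pool 2. The ratio of CGN to its ZO-1 partner TJP1 was 6.36, 5.53 and 5.79 in control pools and 6.03, 5.05 and 5.18 in heat pools, with a log2 difference of -0.12 (exact permutation p = 0.3, adjusted p = 0.4). That difference lay between -0.20 and -0.067 with 1 pool left out.

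**Figure D2:**
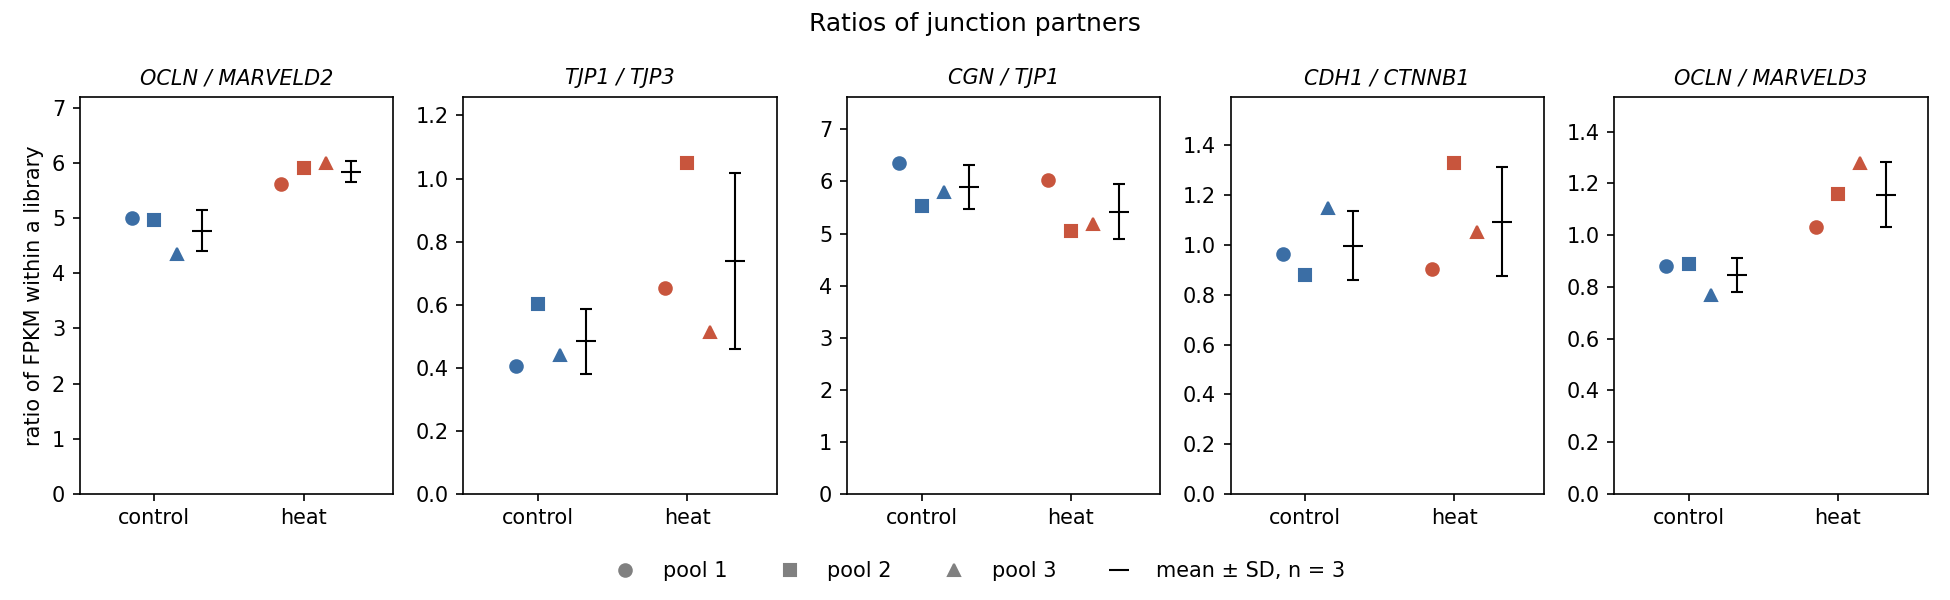
Ratio of FPKM within each library for 5 pairs of junction genes, with blue points for control pools, red points for heat pools, symbols for pools 1 to 3, and the mean ± SD of 3 pools in black. The ratio of OCLN to MARVELD2 separates the groups, from 4.34 to 5.0 against 5.62 to 6.0, while 3 ratios overlap. The ratio of OCLN to MARVELD3, chosen after its values were seen, runs from 0.77 to 0.889 against 1.03 to 1.28. Both ratios that separate the groups hold OCLN, whose own groups do not overlap.

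The core pair of the adherens junction showed no common shift. CDH1 (gene 415860) was at 529, 463 and 553 CPM in control pools, against 440, 525 and 610 CPM in heat pools. The heat pools lay on both sides of the control pools, with heat pool 1 lowest and heat pool 3 highest of all 6 libraries. On the log2 scale the fold change was 0.027 (SE 0.16, edgeR adjusted p = 0.954), with a 95% interval from 0.791 to 1.31 in fold. Its sign turned with the scaling, to -0.035 on library totals alone.

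CTNNB1 (gene 395964), the catenin that binds the CDH1 tail, was at 487, 467 and 426 CPM in control pools, against 431, 350 and 516 CPM in heat pools. Heat pool 2 was the lowest of all 6 libraries and heat pool 3 the highest. The change on the log2 scale was -0.09 (SE 0.16, 95% interval -0.47 to 0.29, edgeR adjusted p = 0.82), and it turned to 0.048 without heat pool 2. The FPKM ratio of CDH1 to CTNNB1 was 0.964, 0.878 and 1.15 in control pools and 0.902, 1.33 and 1.05 in heat pools. This gave a log2 difference of 0.12 (exact permutation p = 0.6, adjusted p = 0.6).

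**Figure D3:**
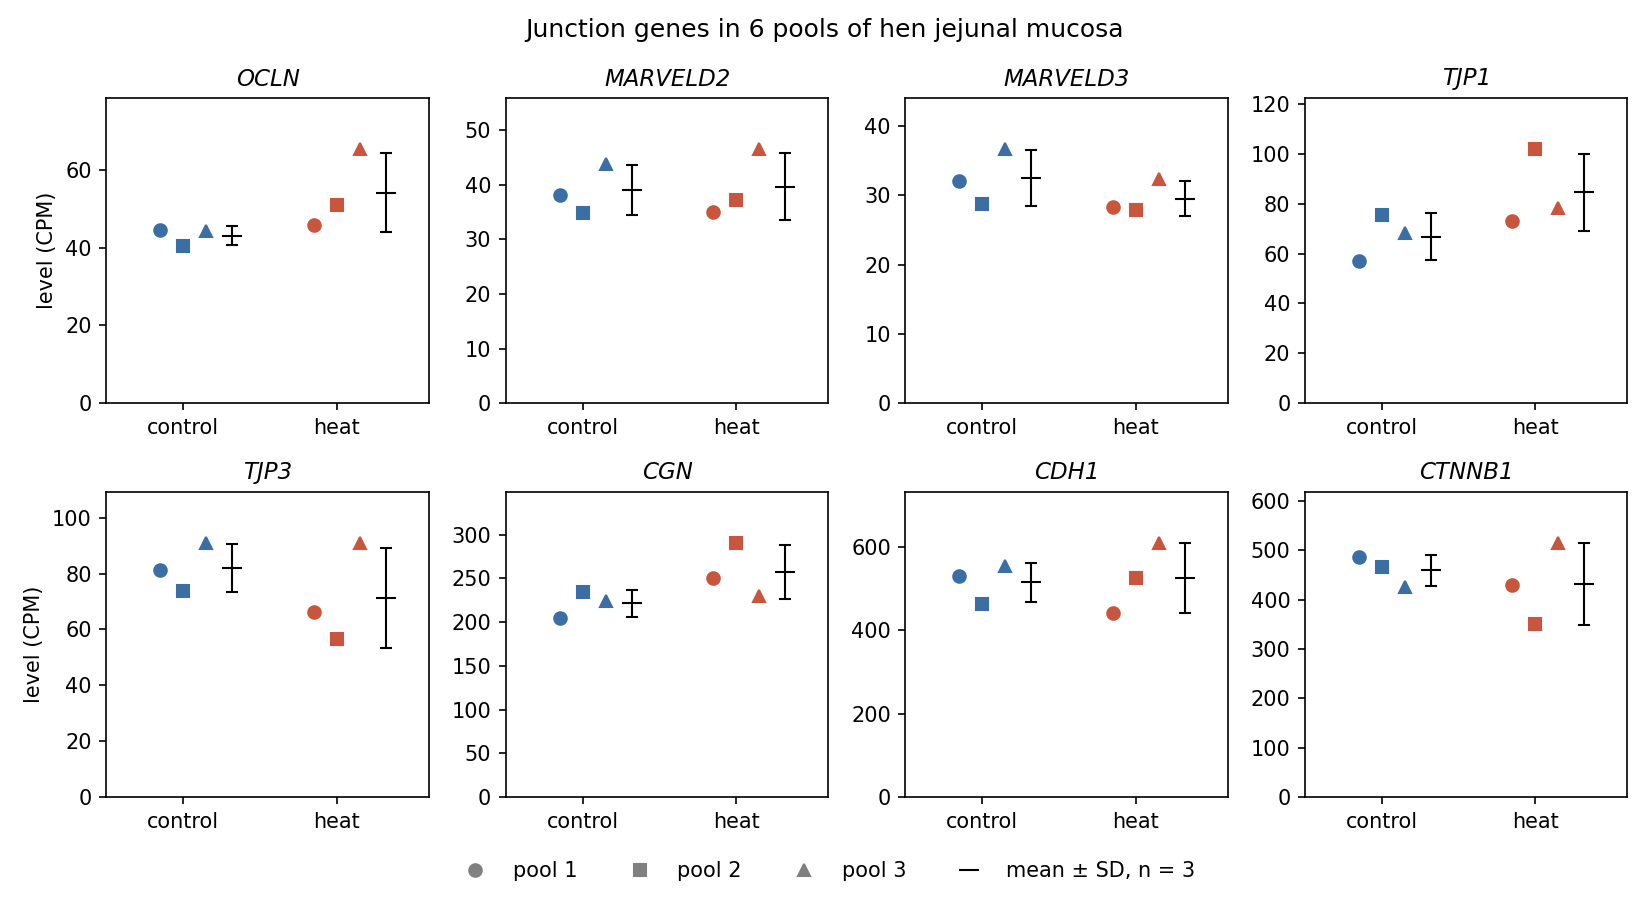
Level (CPM, axes from 0) of each of the 8 junction genes in 3 control pools (blue) and 3 heat pools (red), with symbols for pools 1 to 3 and the mean ± SD of 3 pools in black. The groups are apart in OCLN alone, at 40.4 to 44.5 against 45.9 to 65.4 CPM, with heat pool 1 close to the control pools. Heat pool 2 is the highest library for TJP1 and CGN and the lowest for TJP3, CTNNB1 and, narrowly, MARVELD3.

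Of the 8 genes, none passed in edgeR, none passed in DESeq2, where 5.25% of the genes given an adjusted p did, and none had an unadjusted edgeR p under 0.05, where 17.9% of all tested genes did. One gene, OCLN, had groups that did not overlap, and for all tested genes that share was 24.5% in either direction. The fitted change was positive for 5 genes and negative for 3, with a median log2 fold change of 0.025 against -0.0027 for all tested genes. The 95% intervals hold for each gene alone and were not widened for 8 genes. Their highest upper end was 1.63-fold for TJP1 and their lowest lower end a fold of 0.652 for TJP3.

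**Figure D4:**
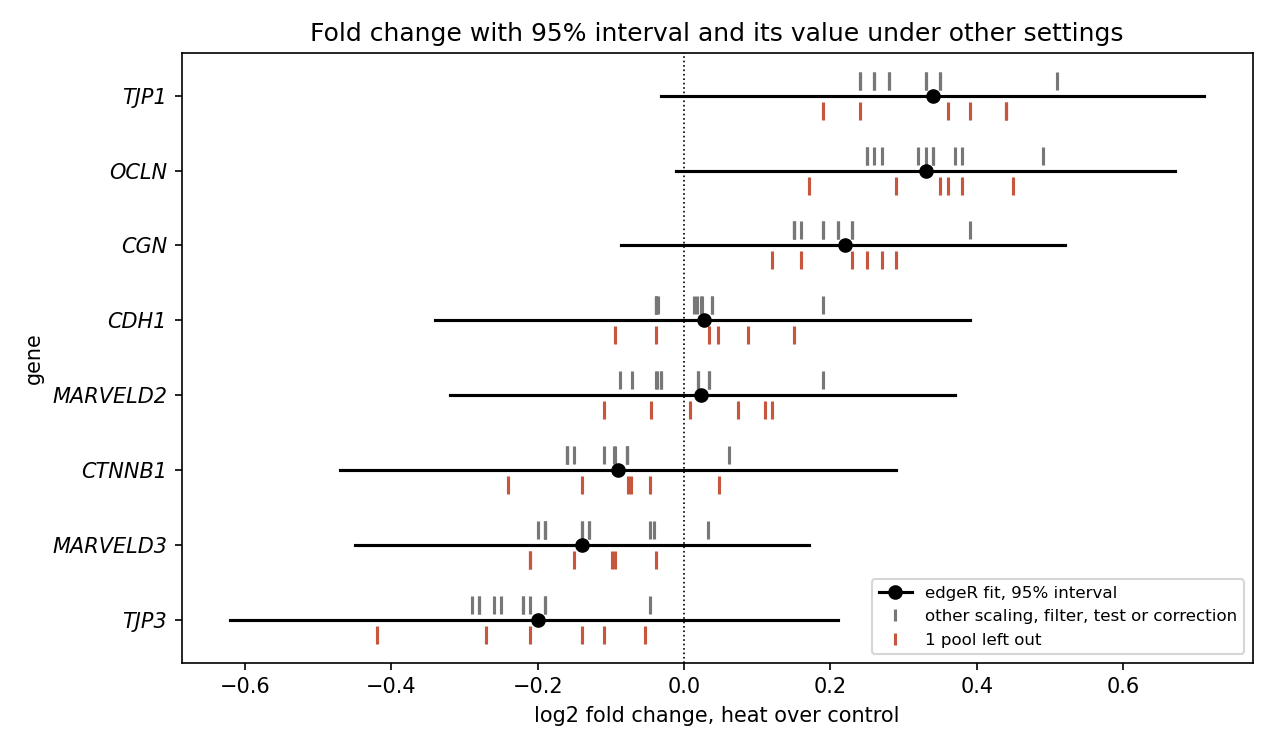
Log2 fold change of heat over control for the 8 junction genes, with the edgeR estimate and its 95% interval in black, the values under other scalings, filters, tests and corrections as grey ticks, and the values with 1 pool left out as red ticks. Every interval includes 0, and the red ticks run from 0.17 to 0.45 for OCLN and from -0.42 to -0.053 for TJP3.

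The heat pools spread more widely than the control pools for 7 of the 8 genes (87.5%, against 65.8% of all tested genes). The median SD of log2 CPM over the 8 genes was 0.14 in control pools and 0.24 in heat pools, and 0.16 and 0.23 over all tested genes. Heat pool 2 lay farthest from the control mean for 5 of the 8 genes, TJP1 (0.62), CGN (0.40), MARVELD3 (-0.21), CTNNB1 (-0.39) and TJP3 (-0.53), and for 46.1% of all tested genes. Heat pool 3 lay farthest for OCLN (0.60), MARVELD2 (0.26) and CDH1 (0.25), and for 30.4% of all tested genes.

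Marker lists of other cells also differed between the pools, in control as in heat. Over control pools the medians, relative to the control mean on the log2 scale, ran from -0.33 to 0.37 for smooth muscle. Control ranges were -0.27 to 0.21 for fibroblasts, -0.38 to 0.15 for endothelium, -0.26 to 0.063 for leukocytes and -0.15 to 0.25 for enterocytes. For epithelium the control range was -0.11 to 0.12, and for cycling crypt cells -0.07 to 0.15. In heat pool 1 the median of 9 leukocyte genes lay 0.43 above the control mean on the log2 scale, that of 10 epithelial genes at -0.24 and that of 9 smooth muscle genes at -0.46. In heat pool 2 the median of 10 fibroblast genes lay at 0.54, that of 9 smooth muscle genes 0.54 and that of 10 endothelial genes 0.34, while that of 10 epithelial genes was at -0.26. In heat pool 3 the fibroblast median was at -0.41, the smooth muscle median at 0.43, the epithelial median at 0.021 and the median of 12 enterocyte genes at 0.48. The enterocyte median was at -0.07 and -0.25 in heat pools 1 and 2. For leukocytes it was -0.13 and 0.066 in heat pools 2 and 3, and for endothelium 0.023 and -0.18 in heat pools 1 and 3. The fibroblast median was at -0.025 in heat pool 1. For 8 goblet and enteroendocrine genes the median was -0.2, -0.22 and 0.12 in heat pools 1, 2 and 3, against a control range of -0.21 to 0.14. The median of 8 genes of cycling crypt cells was at -0.40, -0.13 and -0.38 in heat pools 1, 2 and 3. In 4 of these genes every heat pool lay below every control pool (50%, against 12.9% of all tested genes). The summed level of the 8 genes was 804.9 to 901.8 CPM in control pools. It was 649.1, 974.4 and 739.2 CPM in heat pools 1, 2 and 3, so heat pool 2 was the highest library. Of 10 genes listed for red cells and thrombocytes, 5 were in the table and 3 were tested. The median of these 3 was at -0.59, -0.56 and -0.87 in heat pools 1, 2 and 3, against a control range of -0.14 to 0.11. Their summed level was low, at 26.81 to 29.4 CPM in control pools and 15.69 to 20.79 CPM in heat pools. The summed fibroblast level was 1360 to 2029 CPM in control pools and 1345 to 2636 CPM in heat pools. The summed epithelial level was 5517 to 6806 CPM in control pools and 5006 to 7135 CPM in heat pools. No marker of these lists that had a row in the table was at 0 in every library. The part of cell composition in the values of the junction genes was not tested. With libraries scaled to the epithelial markers, OCLN was at 0.49, TJP1 at 0.51 and CGN at 0.39, but this scaling also moved the median of all tested genes to 0.17, and none of the 8 genes passed.

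The 8 genes did not follow 1 common profile over the pools. Likeness was measured as the root mean square difference of log2 CPM, centred on the control mean, over the 6 libraries. MARVELD2 and CDH1 were the most alike pair (0.0633), followed by MARVELD2 and MARVELD3 (0.124) and by TJP1 and CGN (0.132). The least alike pair was TJP1 and TJP3 (0.531), the paralogous ZO scaffolds. Among 9527 other genes with a mean of at least 10 CPM, those most like OCLN were LOC421195 (0.0367), DENND3 (0.0425), a regulator of Rab GTPases, and BRI3 (0.0587). DENND3 was at 36.5, 35 and 38.5 CPM in control pools, against 39.0, 44.6 and 58.6 CPM in heat pools, highest in heat pool 3 as OCLN was. This shared peak follows from the way DENND3 was selected, over the same libraries. Those most like TJP1 were CTSV, a lysosomal cathepsin (0.0398), FNBP1L, which bends membranes at sites of actin assembly (0.0631), and TYW1, a tRNA modifying enzyme (0.0742). The junction gene nearest to OCLN, CDH1, came at rank 1303 of these genes, and CGN came at rank 134 for TJP1.

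Other genes of the junction and its control were described from 7 lists, of which 128 of 158 listed symbols were tested. None passed over all genes in edgeR. DESeq2 gave 125 of them an adjusted p, and 6 of these passed (4.8%, against 5.25% of all genes given one). Of the 128 genes, 75 had a positive fitted change, against 6485 of all 13060 tested genes. The median over the 128 genes was 0.074, against -0.0027 for all tested genes. In 15.6% every heat pool lay above every control pool and in 3.91% below, against 11.6% and 12.9% of all tested genes. The values of some of these genes moved with the correction for gene length or without 1 heat pool. Genes named below were taken from the 4 of each list with the smallest edgeR p, a choice that favours groups without overlap.

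Among 15 other membrane proteins of the tight junction the median was 0.24. The claudin CLDN10, which forms ion pores in mammals, was at 153, 119 and 172 CPM in control pools, against 196, 243 and 200 CPM in heat pools (log2 fold change 0.53, SE 0.16, edgeR adjusted p = 0.166). JAM2, a junctional adhesion molecule also found on endothelium, was at 9.11, 10.9 and 11.3 CPM in control pools and 18.5, 24.7 and 11.8 CPM in heat pools (0.81, SE 0.26, edgeR adjusted p = 0.176), and its log2 fold change was 0.54 without heat pool 2. The heat pools of both genes lay above all control pools, heat pool 3 narrowly for JAM2. Over the 15 genes this held in 4 (26.7%, against 11.6% of all tested genes), and every heat pool lay below in 0. CLDN5, typical of endothelium, was low at 1.68 ± 0.667 CPM in control pools and 2.95 ± 0.634 CPM in heat pools (n = 3), and CLDN23 was at a log2 fold change of -0.63 (SE 0.27, edgeR adjusted p = 0.279; -0.96 without heat pool 3).

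Among 26 genes of the plaque and of cell polarity the median was 0.089. PRKCZ, an atypical protein kinase C of the PAR polarity complex, was at 61.8, 66.4 and 61.0 CPM in control pools and 77.0, 93.0 and 85.1 CPM in heat pools, with no overlap. Its change on the log2 scale was 0.43 (SE 0.11), with an edgeR adjusted p of 0.126 and a DESeq2 adjusted p of 0.0371. MAGI1, a scaffold of the same domain family as the ZO proteins, was at 49.4, 50.7 and 51.4 CPM in control pools and 60.8, 71.7 and 79.5 CPM in heat pools, again with no overlap. Its log2 fold change was 0.48 (SE 0.12; 0.40 with the length correction), with an edgeR adjusted p of 0.126 and a DESeq2 adjusted p of 0.0383. PRKCI, the other atypical kinase of that complex, was at 0.26 (SE 0.11) and AMOT, an angiomotin, at 0.24 (SE 0.12), or 0.16 without heat pool 2 and 0.14 with the length correction.

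Among 19 genes of the adherens junction the median was 0.068. LMO7, which binds afadin and actinin at the adherens junction, was at 242, 263 and 254 CPM in control pools and 298, 316 and 327 CPM in heat pools (log2 fold change 0.31, SE 0.11, edgeR adjusted p = 0.208), with no overlap. CDH2, the neural cadherin, was at 0.56 (SE 0.22) from a control level of 3.95 ± 0.628 CPM, against 515 ± 46.9 CPM for CDH1 (n = 3). AFDN, afadin, was at 0.34 (SE 0.16) and at 0.19 with the length correction, and the phosphatase PTPRK was at 0.31 (SE 0.17). Without heat pool 2 they were at 0.22 and 0.16. Among 8 desmosome genes the median was 0.013. PPL, periplakin, was low at 5.08 ± 0.713 CPM in control pools and 7.27 ± 1.31 CPM in heat pools (n = 3). Its log2 fold change was 0.52 (SE 0.22, edgeR adjusted p = 0.278), or 0.40 without heat pool 2. DSP, desmoplakin, was at 0.24 (SE 0.16), while the plakophilins PKP4 and PKP3 were at -0.11 (SE 0.10) and -0.21 (SE 0.20). DSP was at 0.15 without heat pool 2 and at 0.13 with the length correction, and PKP3 was at -0.40 without heat pool 3. PKP4 was at -0.059 without heat pool 3 and at 0.063 with scaling on epithelial markers, which moved the median of all tested genes to 0.17.

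Among 23 regulators of junctional actomyosin the median was -0.042. ARHGEF18, a guanine nucleotide exchange factor of the apical junction, was at 59.9, 71.2 and 67.4 CPM in control pools and 87.8, 90.8 and 113 CPM in heat pools, with no overlap. Its fitted log2 change was 0.55 (SE 0.13), with an edgeR adjusted p of 0.119 and a DESeq2 adjusted p of 0.0194. The myosin-regulating kinases ROCK1 and ROCK2 were at 0.27 (SE 0.12, edgeR adjusted p = 0.283) and 0.35 (SE 0.15, edgeR adjusted p = 0.276). With the length correction they were at 0.19 and 0.25, and the groups of ROCK2 overlapped. EZR, ezrin of the brush border, was at 392, 402 and 404 CPM in control pools, against 303, 285 and 389 CPM in heat pools (-0.30, SE 0.15, edgeR adjusted p = 0.334). Its heat pools lay below all control pools, heat pool 3 narrowly. The change of EZR was -0.20 without heat pool 2 and -0.44 without heat pool 3. It was -0.14 with scaling on epithelial markers, which moved the median of all tested genes to 0.17.

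Among 21 partners of beta-catenin in its destruction complex and in the nucleus the median was 0.10. TCF7L2, the DNA-binding partner of beta-catenin in gut epithelium, was at 36.6, 36.3 and 35 CPM in control pools and 45.4, 48.8 and 51.4 CPM in heat pools. Its change on the log2 scale was 0.43 (SE 0.11), with an edgeR adjusted p of 0.123 and a DESeq2 adjusted p of 0.0364. BCL9, a coactivator of beta-catenin, was at 39.2, 36.8 and 43.3 CPM in control pools and 57.7, 89.2 and 54.4 CPM in heat pools. Its log2 fold change was 0.75 (SE 0.19; 0.50 without heat pool 2), with an edgeR adjusted p of 0.13 and a DESeq2 adjusted p of 0.0159. Neither gene had overlapping groups. The same held for the casein kinase CSNK1E (0.45, SE 0.16, DESeq2 adjusted p = 0.158). It also held for the acetyltransferase CREBBP (0.49, SE 0.18, DESeq2 adjusted p = 0.144), which was at 0.26 without heat pool 2. Over the 21 genes every heat pool lay above every control pool in 4 (19.0%, against 11.6% of all tested genes) and below in 0. The share above was 26.7% for tight junction membrane proteins, 15.4% for plaque and polarity and 18.8% for the transcription factors. It was 10.5% for the adherens junction, 12.5% for the desmosome and 8.7% for actomyosin regulators. In these 6 lists, in the same order, the share below was 0, 3.85, 12.5, 5.26, 0 and 4.35%.

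Among 16 transcription factors tied to CDH1 and epithelial identity the median was 0.059. GRHL2, an activator of CDH1 transcription in mammals, was at 20.2, 24.3 and 23.2 CPM in control pools and 26.9, 42.3 and 30.1 CPM in heat pools (0.55, SE 0.19, edgeR adjusted p = 0.189; 0.34 without heat pool 2). TFCP2L1, of the same grainyhead superfamily, was at 3.69 ± 0.6 CPM in control pools and 2.08 ± 0.368 CPM in heat pools (n = 3; log2 fold change -0.82, SE 0.27, edgeR adjusted p = 0.177), and TCF3, an E-box factor, was at 0.26 (SE 0.10).

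**Figure D5:**
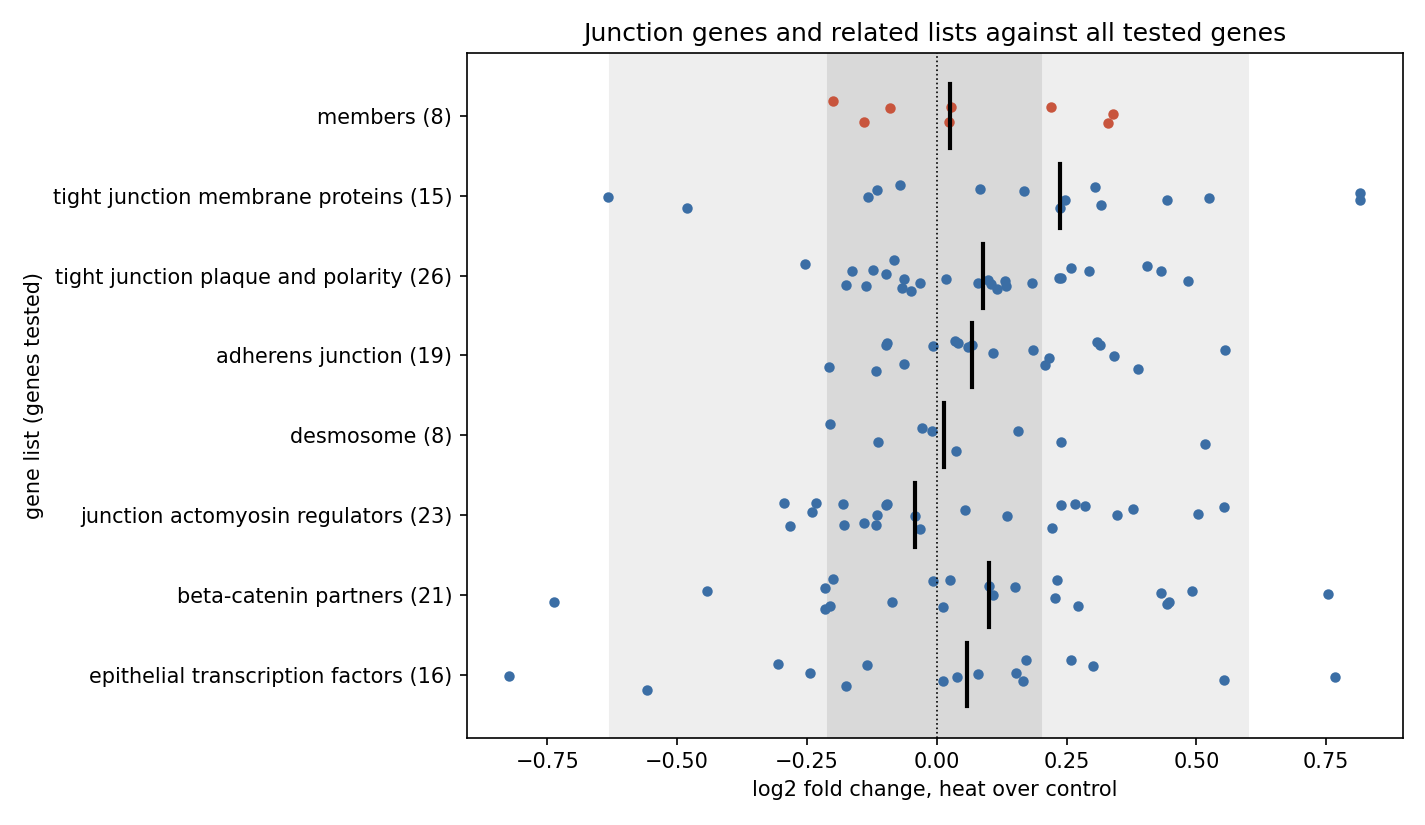
Log2 fold change of heat over control for the 8 junction genes (red points) and for the tested genes of 7 related lists (blue points), with the number of genes tested in brackets and the median of each as a black bar. The dark band runs from percentile 25 to 75 of all tested genes (-0.21 to 0.20) and the light band from percentile 5 to 95 (-0.63 to 0.60); the medians run from -0.042 for actomyosin regulators to 0.24 for tight junction membrane proteins.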

How the data were processed

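The authors deposited estimated counts per gene and library, not all whole numbers, and FPKM values, per the file headers. The build was GRCg6a, and the submitters' processing notes name DESeq2, HTSeq 0.6.1, HISAT2 2.0.1 and cutadapt 1.9.1 without their order, settings or strand. The estimated counts of MARVELD2, CDH1 and CTNNB1 included values that were not whole (tolerance 0.001). Groups and replicate numbers came from the sample titles. Counts were rounded and tested with edgeR 4.0.16 in R 4.3.3 (glmQLFit and glmQLFTest on all 6 libraries, TMM scaling, filterByExpr with minimum count 10 and minimum total 15), two-sided, with Benjamini-Hochberg adjustment over 13060 genes and a threshold of 0.05. SE is the size of the log2 fold change over the root of its F statistic, and 95% intervals use the total degrees of freedom of the fit. CPM uses TMM scaled library sizes, and profiles use log2 CPM with prior count 2. Alternatives used DESeq2 1.42.0 and limma-trend 3.58.1 on log2(FPKM + 1). Gene length was implied by count, library total and FPKM. The code was checked on simulated counts. Pools of a group were not repeats of 1 library: the chi-square of each pair, per degree of freedom, was 22.2 to 65.

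The members and lists were chosen with earlier results of these data known. The genes named beside the 8 junction genes were, by rule, the 4 of each pathway list with the smallest p. They also included the 3 most like OCLN or TJP1, and HSPA2 for heat pool 2, which earlier results set apart. EPCAM, VIL1 and the ratio of OCLN to MARVELD3 fall outside this rule and were chosen after their values were seen. A gene that the rule names is not reported here. Names of neighbouring genes came from a gene table of GRCg7b, so no coordinates are given.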

Additional observations from a re-analysis of the deposited data

How the results depend on the processing

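None of the 8 junction genes passed under any of 17 alternatives, and OCLN (0.17 to 0.49), TJP1 (0.19 to 0.51), CGN (0.12 to 0.39) and TJP3 (-0.42 to -0.046) kept their direction in all of them. MARVELD2 turned to -0.038 on library totals, -0.071 with the gene length trend removed and -0.032, -0.037 and -0.032 by limma-trend on log2(FPKM + 1), on log2(FPKM + 0.1) and without a filter. CDH1 turned to -0.035 on library totals and to -0.038, -0.039 and -0.038 in the same FPKM fits. With scaling on epithelial markers MARVELD3 was at 0.033 and CTNNB1 at 0.061. Leaving out 1 pool at a time gave -0.11 to 0.12 for MARVELD2, -0.094 to 0.15 for CDH1, -0.24 to 0.048 for CTNNB1 and -0.027 to 0.25 for the log2 ratio of CDH1 to CTNNB1. The median log2 fold change of all tested genes, -0.0027 in the main fit, was -0.058 on library totals and 0.17 with epithelial scaling. It was -0.052, -0.066 and -0.032 in the FPKM fits, in the order above, and 0.0061 with the gene length trend removed. The cause of the turns in sign was not tested.

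Over all genes, 3 called higher and 0 lower in edgeR became 352 and 293 in DESeq2. The count called higher was 1 by limma-trend on log2(FPKM + 0.1), 0 by limma-trend without a filter, and 0 to 6 with 1 pool left out; the count called lower was 0 to 1 with 1 pool left out, against 1178 at an unadjusted edgeR p under 0.05. The labels do not say that replicate numbers mark paired pools. Correlations of deviations across genes between same-numbered pools were 0.257, 0.089 and 0.017. Those between pools of different number ran from -0.239 to 0.185, and not every pool correlated best with its own number. Whether pools of the same number shared their handling was not tested. With the replicate number as a block, 8 genes were called higher and 12 lower, and with the block and the length trend removed 8 and 11, none a junction gene; under the latter MARVELD2 was at -0.088. The blocked log2 fold changes of OCLN, TJP1, CGN and TJP3 were 0.32, 0.33, 0.21 and -0.22. Pools of 4 hens, 3 per group, limit what could be detected: intervals of the 8 genes reach from 0.652-fold to 1.63-fold.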
